A study of Mus musculus with 4 samples.

Results

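The constitutive proteasome genes were taken from the count table as every row whose symbol begins with Psm, one of the letters a to g and a number. The inducible and thymus-specific catalytic subunits *Psmb8*, *Psmb9*, *Psmb10* and *Psmb11* were left out, as were processed copies. The rule found 45 of the 23337 genes in the table. They were 8 alpha and 7 beta subunits of the 20S core, 6 ATPases and 3 other subunits of the base of the 19S regulatory particle, 8 subunits of its lid, 3 chaperones of 19S assembly, 4 chaperones of 20S assembly, and 5 genes of activators and an inhibitor. The rule also took in *Psmc3ip*, a meiotic recombination factor whose symbol only resembles that of an ATPase.

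The proteasome is the barrel-shaped protease that degrades most ubiquitin-tagged proteins of the cell. Its core is built of alpha rings, which gate entry, around beta rings, which carry the catalytic sites, and the 19S particle recognises, deubiquitinates and unfolds the substrate. In the thymus the peptides it makes are loaded on MHC class I, and medullary thymic epithelial cells (mTECs) show developing T cells such peptides from a wide range of self proteins.

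The study asked what loss of the histone deacetylase *Sirt6* in thymic epithelium does to mTECs, and RNA-seq was run on mTECs sorted as CD45-EpCAM+UEA-1+Ly51- cells from the thymus of C57BL/6 mice at an age of 4 weeks. There were 2 libraries of wild-type (WT) controls, *Foxn1*-Cre-negative littermates or age-matched mice, and 2 libraries of *Foxn1*-Cre *Sirt6* loxp/loxp mice, named *Sirt6* cKO here and Sirt6-/- in the deposited genotype. *Foxn1*-Cre acts across thymic epithelium, cortical cells included, so the deletion was not limited to the sorted population. The 2 samples of a group were described as independent, but how many mice gave each was not stated. P-values therefore measure only the spread between these libraries.

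The libraries held 61102704 to 65907745 counts, and 18547 genes passed the filter on low counts. The targeted gene, *Sirt6*, gave 622 and 755 counts for WT against 882 and 835 for *Sirt6* cKO, so its level did not go with the label (log2 fold change 0.37, SE 0.32, adjusted p = 0.80 with edgeR's quasi-likelihood test). The table gives 1 count per gene, so reads from the deleted exons could not be separated from the rest of the transcript. Every direction below therefore compares libraries by their labels. The study itself reported that *Sirt6* was inactivated in these mice. It measured *Sirt6* mRNA by quantitative PCR in sorted mTECs and cortical cells, and the protein by western blot in cultured thymic epithelial cells. mTEC markers were present in all libraries, with summed levels of 2018 and 2265 CPM (counts scaled to a common library size, with TMM factors) in WT and 2464 and 3047 CPM in *Sirt6* cKO. Of these 7 markers, 3 were higher at an unadjusted p of 0.05 in the edgeR fit, where 8.58% of all tested genes were called in either direction. The 8 markers of macrophages and dendritic cells summed to 6021 and 3508 CPM in WT and 2489 and 2516 CPM in *Sirt6* cKO, and 5 of the 8 were lower at that threshold. The 10 thymocyte markers summed to 1078 and 800 CPM in WT and 1010 and 554 CPM in *Sirt6* cKO. No marker of these lists was at 0 in all libraries. Their part in the values of the proteasome genes was not tested, and in bulk RNA fewer cells of a type cannot be told apart from less RNA per cell.

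All 45 proteasome genes passed the filter. Together they held 0.570% and 0.545% of the counts in WT 1 and WT 2, and 0.482% and 0.495% in *Sirt6* cKO 1 and 2. Per length, in TPM, which scales transcript abundance to the same total in each library, their share was 0.839% and 0.816% in WT and 0.755% and 0.753% in *Sirt6* cKO. Both shares were thus lower in each library labelled *Sirt6* cKO than in each WT library, while an exact two-sided permutation test of 2 libraries against 2 cannot go below p = 0.333. The 2 shares rest on the same counts and are not separate evidence. The count share uses library totals without TMM factors, a scale on which genes in general leaned lower in *Sirt6* cKO. With library size alone, 56.7% of all tested genes had a log2 fold change below 0. The median was then -0.093 over all genes and -0.23 over the 45.

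Levels per length differed widely between genes whose products sit in the same particle. As means over the 4 libraries, the highest were *Psmd4*, a ubiquitin receptor of the 19S base, at 686 TPM, *Psmd14*, the deubiquitinase of the lid, at 606 TPM, and *Psmd8*, another lid subunit, at 553 TPM. Among the 14 core subunits other than *Psma8*, the range was 28.7-fold, from 15.6 TPM for *Psmb4*, a structural beta subunit, to 446 TPM for *Psmb7*, which carries the trypsin-like site. The other catalytic subunits were low, at 21.3 TPM for *Psmb5*, the chymotrypsin-like site, and 43.4 TPM for *Psmb6*, the caspase-like site. The 6 ATPases, in contrast, spanned only 4.01-fold, from 80.4 TPM for *Psmc2* to 323 TPM for *Psmc1*. The lid genes spanned 17.0-fold. Sequence shared with other annotated genes can split or add reads, and it occurred in core genes of high and of low level. In GENCODE M21, 57.1% of the 50-base words of the low *Psmb5* also occurred in another gene, but only 2.50% of those of *Psmb1* (28.2 TPM), 2.67% of those of *Psmb6* and 0% of those of *Psmb4*. Of the highest core genes, *Psmb7* shared 28.1% and *Psma4* (376 TPM) 31.5%. Over all 45 genes, 22 shared no such word, 14 shared more than 10% and 4 more than 50%, the last being *Psma5*, *Psmb3*, *Psmb5* and *Psme2*, whose words were shared with *Psme2b*. On the opposite strand, 10 genes overlap exons of another gene, *Psmb7* by 405 bases of *Nek6* and *Psmd13* by 342 bases of *Sirt3*. Words were matched on either strand, so such overlaps can also count as shared words, as for all those of *Psmb7*. Whether counting used strand was not stated, so these levels are uncertain.

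**Figure D1:**
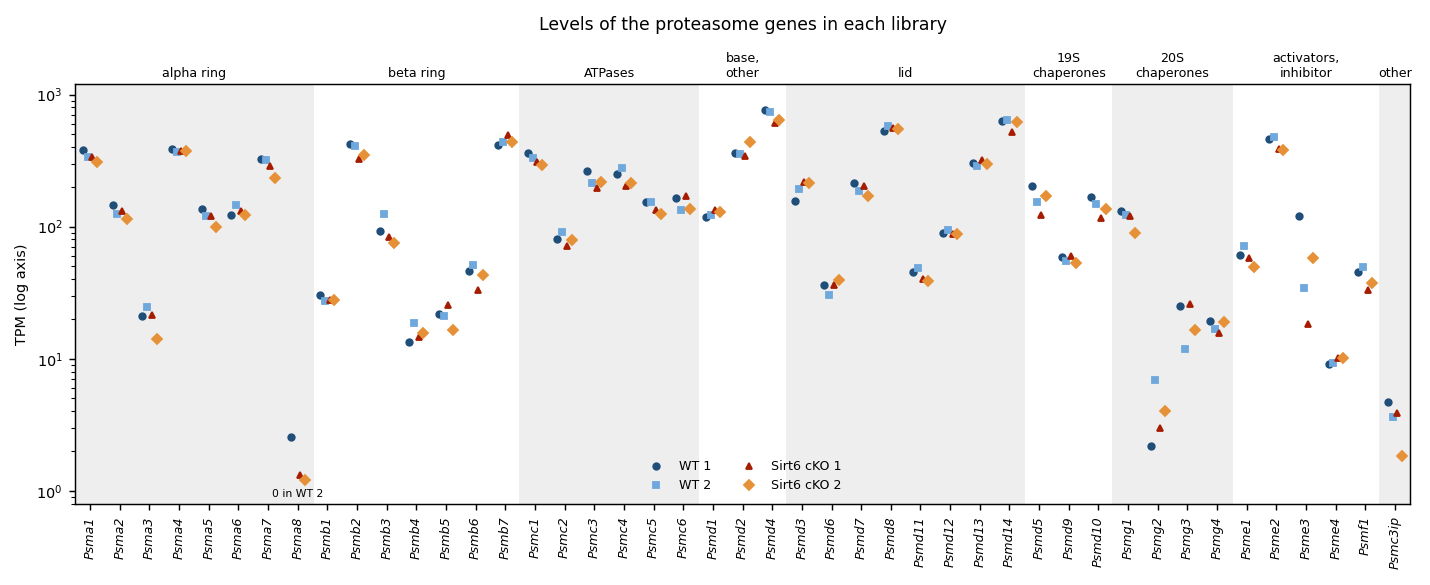
TPM on a log axis for each of the 45 genes, grouped by role, with 1 symbol per library (WT circles and squares, *Sirt6* cKO triangles and diamonds). Means run from 1.28 TPM for *Psma8*, listed at 0 in WT 2, to 686 TPM for *Psmd4*, and the 4 symbols of *Psme3* lie far apart.

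The 45 genes lie on 16 chromosomes. RefSeq promoters, taken as 250 bases before to 50 after the start in GRCm38.p6, were held for 37 of the 45. On either strand, the letters CCGGAAG, the core of a site for Ets factors, stood in 15 of the 37 (40.5%), against 9.93% of 27025 genes with a promoter in the table. The letters TGACNNNGC, the core of the antioxidant response element that the factor Nrf1 can bind, stood in 6 of the 37 (16.2%) against 14.0% of all promoters. CCAAT stood in 13 of the 37 (35.1%) against 41.1%. *Psmc3ip*, not a proteasome gene, is among the 15 and the 13. The 27025 genes were not limited to those tested here. No motif contains another, they were chosen with the results known, and a match describes a sequence and not a bound site. Shown are the 100 bases before the annotated gene start for 2 catalytic subunits with the TGACNNNGC core (*Psmb5*, chr14:54618023-54618122, minus strand, and *Psmb6*, chr11:70525257-70525356, plus strand), the beta subunit with the lowest log2 fold change (*Psmb3*, chr11:97703299-97703398, plus strand), a scaffold of the 19S base with an Ets core (*Psmd2*, chr16:20651552-20651651, plus strand) and the gene with the highest level (*Psmd4*, chr3:95042615-95042714, minus strand). All are written 5′ to 3′ on the strand of the gene, from GRCm38.p6, with matches to the motifs in capitals.
Psmb5: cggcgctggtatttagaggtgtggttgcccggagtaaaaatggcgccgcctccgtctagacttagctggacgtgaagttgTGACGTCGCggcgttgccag
Psmb6: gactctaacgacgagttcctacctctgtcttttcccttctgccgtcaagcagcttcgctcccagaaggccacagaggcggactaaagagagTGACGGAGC
Psmb3: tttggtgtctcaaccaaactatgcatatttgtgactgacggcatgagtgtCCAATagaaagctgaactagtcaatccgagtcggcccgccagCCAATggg
Psmd2: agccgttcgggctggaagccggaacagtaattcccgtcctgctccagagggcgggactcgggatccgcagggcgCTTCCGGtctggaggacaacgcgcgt
Psmd4: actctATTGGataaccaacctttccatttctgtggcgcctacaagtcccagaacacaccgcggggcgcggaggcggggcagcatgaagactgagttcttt
In these stretches *Psmb5* and *Psmb6* each hold 1 TGACNNNGC core, *Psmb3* holds 2 CCAAT boxes, *Psmd4* holds 1 on the other strand, and *Psmd2* holds 1 Ets core on the other strand.

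The comparison of the groups called no proteasome gene. With edgeR's quasi-likelihood test 0 of the 45 had an unadjusted p under 0.05, where 8.58% of all tested genes did, and 0 had an adjusted p under 0.05, where 0.00539% of all genes did (1 gene). DESeq2 also called 0 of the 45 at the unadjusted p, against 10.2% of all genes, and 0 at the adjusted p, against 1.83%. The smallest unadjusted p was 0.101 in edgeR for *Psmc4*, an ATPase (adjusted p = 0.65), and 0.0912 in DESeq2 for *Psmf1*, the inhibitor. A p that misses the threshold does not show that the genes were equal, and the intervals say how large a difference these libraries would allow. For 35 of the 45 genes (77.8%) the 95% interval of the fold change lay within 2-fold in both directions. This held for 25.6% of all tested genes, which include many genes of low count. The exceptions were *Psma3*, *Psma8*, *Psmb3*, *Psmb4*, *Psmb6*, *Psmg2*, *Psmg3*, *Psmg4*, *Psme3* and *Psmc3ip*. All 17 subunits of the 19S particle were within 2-fold.

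Point estimates leaned to the lower side for *Sirt6* cKO. The log2 fold change was below 0 for 35 of the 45 genes, where it was below 0 for 50.4% of all tested genes, and the median over the 45 was -0.14 against -0.0047 over all genes. Both libraries labelled *Sirt6* cKO lay below both WT libraries for 16 of the 45 genes (35.6%), where this held for 20.3% of all tested genes. Both lay above for 4 of the 45 (8.89%), where this held for 21.6% of all genes, and the groups overlapped for 25. The 4 were *Psmb7*, *Psmd1*, *Psmd3* and *Psme4*. All but 1 of the 45 point estimates, 44, were within 1.5-fold, and *Psme3* was the exception.

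Per library the shift was graded. After TMM normalization the deviation of each gene from its own mean was taken on the log2 CPM scale, leaving out *Psma8*. The median deviation was 0.11 and 0.03 in the WT libraries and -0.03 and -0.10 in those of *Sirt6* cKO, in replicate order. Both WT medians lay above both *Sirt6* cKO medians, while the step between the nearest libraries, WT 2 and *Sirt6* cKO 1, was smaller than the step between the replicates of either group. In that nearest pair 26 of the 45 genes were higher in WT 2. The median of the 45 genes was 0.14 below that of all genes, and only 0.03 below it without *Sirt6* cKO replicate 2 but 0.22 below it without WT replicate 2. Proteasome genes were otherwise steadier than most: the median difference between replicates was 0.16 log2 units in WT and 0.16 in *Sirt6* cKO, against 0.43 and 0.39 over all genes, which include many genes of low count.

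**Figure D2:**
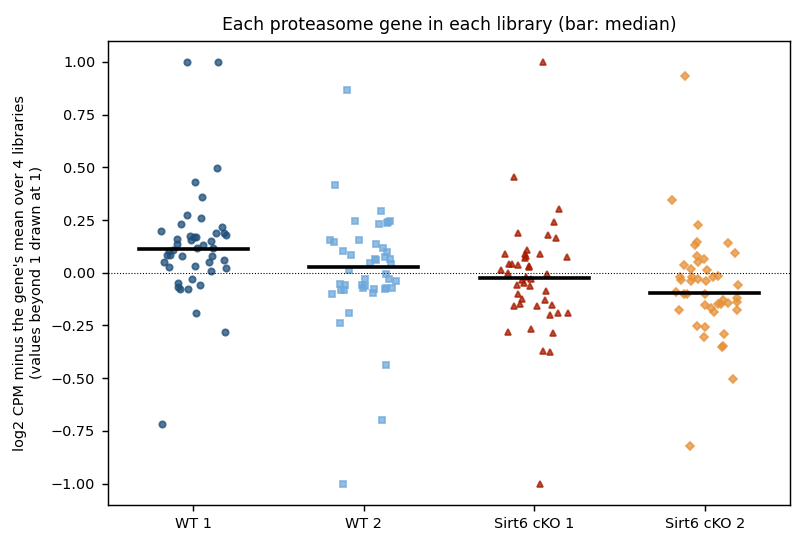
Each point is 1 of the 45 genes in 1 library, as log2 CPM minus the mean of that gene over the 4 libraries. Values beyond 1 in size are drawn at the limit. The black bar is the median of the genes other than *Psma8*. The points include a prior count of 2 added before the log, and the bars do not. The medians run from 0.11 in WT 1 to -0.10 in *Sirt6* cKO 2, and the points of all 4 libraries overlap.

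In the alpha rings of the core, 8 of 8 point estimates were below 0, with a median of -0.13 and with 0 of 8 past the unadjusted threshold in the edgeR fit. *Psma3*, an alpha subunit, had 13.8 and 15.8 CPM in WT and 13.9 and 9.07 CPM in *Sirt6* cKO. The groups overlapped, the low value was that of *Sirt6* cKO 2, and the log2 fold change was -0.37 (SE 0.35, 95% interval -1.26 to 0.53). *Psma4* marked the other end of the ring, with 196 and 181 CPM in WT, 190 and 186 CPM in *Sirt6* cKO and a log2 fold change of -0.0047 (SE 0.16). *Psma7* was the alpha gene whose groups did not overlap, at a log2 fold change of -0.30. Its germ-cell paralogue *Psma8*, which replaces it in the testis, gave 132 counts and 0 counts in the WT pair and 62 and 60 counts in the *Sirt6* cKO pair. The 0, in WT 2, allows up to 3 counts, or 0.0491 CPM before TMM, for counting error only. The *Psma8* values in the libraries labelled *Sirt6* cKO lay between those of the 2 WT libraries, and the interval of its fold change was too wide to limit it (log2 -5.41 to 5.33).

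In the beta rings, 6 of 7 point estimates were below 0 and the median was -0.06, with 0 of 7 past the threshold. The catalytic *Psmb5* had 8.83 and 8.17 CPM in WT and 10.3 and 6.55 CPM in *Sirt6* cKO, so that the WT values lay inside the range of the other group (log2 fold change -0.01, SE 0.39). *Psmb6* had 21.9 and 24.0 CPM in WT against 15.6 and 20.4 CPM in *Sirt6* cKO, without overlap, at a log2 fold change of -0.35 (SE 0.29, unadjusted p = 0.284 in the edgeR fit). *Psmb7* stood on the other side, with 186 and 189 CPM in WT against 221 and 192 CPM in *Sirt6* cKO (log2 fold change 0.14, SE 0.17). The catalytic subunits thus had estimates on both sides of 0, none past the threshold. *Psmb3*, a structural subunit, had the lowest estimate of the core, with 31.0 and 41.2 CPM in WT and 28.2 and 25.2 CPM in *Sirt6* cKO. Its groups did not overlap, yet the WT replicates were 1.33-fold apart and the log2 fold change was -0.44 (SE 0.28, unadjusted p = 0.17).

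The inducible subunits *Psmb8*, *Psmb9* and *Psmb10* replace *Psmb5*, *Psmb6* and *Psmb7* in the immunoproteasome, so the ratio of each pair in a library does not depend on scaling between libraries. *Psmb8* over *Psmb5* was 2.63 and 2.81 in WT and 2.11 and 3.69 in *Sirt6* cKO, in TPM. *Psmb9* over *Psmb6* was 4.96 and 4.60 in WT and 6.18 and 4.60 in *Sirt6* cKO. Both ratios stood above 1 in all 4 libraries, and the groups overlapped in each. The size of the ratios to *Psmb5* and *Psmb7* is uncertain, since 57.1% and 28.1% of the words of these genes occur in other genes. For *Psmb7* all of these words were shared with *Nek6*, whose exons overlap it on the opposite strand. Among the inducible genes, *Psmb9* shares 12.5% of its words with *Tap1*, and *Psmb8* shares 5.83% with *Gm20496*. Both of these overlap exons on the opposite strand, so their levels are uncertain too. *Psmb10* over *Psmb7* was 0.379 and 0.384 in WT and 0.373 and 0.317 in *Sirt6* cKO, below 1 throughout and lower in both libraries labelled *Sirt6* cKO. That difference, -0.15 on the log2 scale, came mostly from *Sirt6* cKO 2 and was -0.03 without it. The 4 inducible or thymus-specific genes passed no threshold in the edgeR fit, with log2 fold changes of -0.01 for *Psmb8* (SE 0.24), -0.20 for *Psmb9* (SE 0.19), 0.0014 for *Psmb10* (SE 0.23) and -0.25 for *Psmb11* (SE 0.55). *Psmb11*, the thymoproteasome subunit of cortical epithelium, had 55.9 and 38.9 CPM in WT and 59.9 and 19.7 CPM in *Sirt6* cKO.

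**Figure D3:**
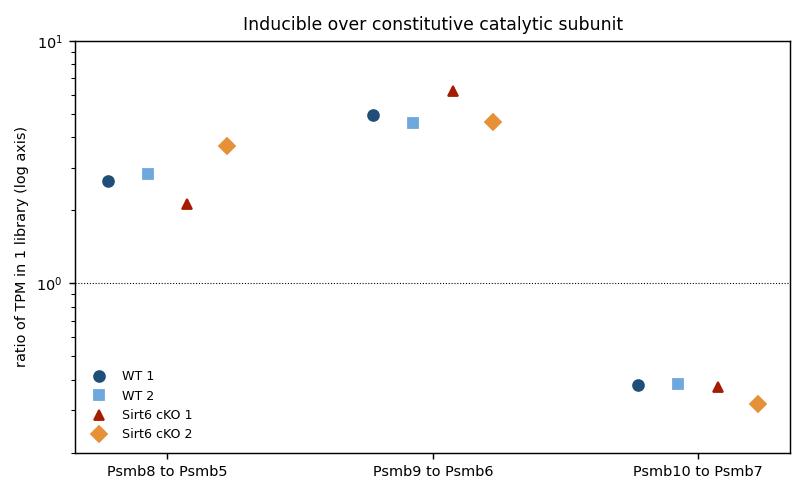
Ratio of TPM of each inducible catalytic subunit to the constitutive subunit it replaces, 1 symbol per library, on a log axis with a dotted line at 1. *Psmb8* to *Psmb5* and *Psmb9* to *Psmb6* lie between 2.11 and 6.18, and *Psmb10* to *Psmb7* lies between 0.317 and 0.384. The level of *Psmb5* is uncertain because of shared sequence, and those of *Psmb7*, *Psmb8* and *Psmb9* because exons of another gene overlap them on the opposite strand.

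Of the 6 ATPases that unfold the substrate, 5 had estimates below 0, with a median of -0.20 and with 0 of 6 past the threshold. In 4 of the 6, *Psmc1*, *Psmc2*, *Psmc4* and *Psmc5*, both *Sirt6* cKO libraries lay under both WT libraries, where this held for 20.3% of all tested genes. *Psmc4* had 166 and 180 CPM in WT and 135 and 139 CPM in *Sirt6* cKO, at a log2 fold change of -0.34 (SE 0.17, 95% interval -0.76 to 0.09), which spans 0.59-fold to 1.07-fold. *Psmc6* had 120 and 94.5 CPM in WT and 123 and 97.3 CPM in *Sirt6* cKO, so the same spread appeared in both groups (log2 fold change 0.04, SE 0.23).

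The 3 other base subunits went different ways. *Psmd4* had 442 and 411 CPM in WT against 351 and 363 CPM in *Sirt6* cKO, without overlap (log2 fold change -0.26, SE 0.15, unadjusted p = 0.144). *Psmd2*, a scaffold for ubiquitin receptors, had 492 and 470 CPM in WT and 468 and 587 CPM in *Sirt6* cKO, with *Sirt6* cKO 2 alone above the rest (log2 fold change 0.13, SE 0.17). *Psmd1*, the other scaffold, was also at 0.13, without overlap. In the lid, 4 estimates were above and 4 below 0, with a median of -0.03. *Psmd3*, a structural lid subunit, had the highest estimate of all 45 genes, with 156 and 184 CPM in WT and 215 and 209 CPM in *Sirt6* cKO. Both libraries labelled *Sirt6* cKO were higher, and the log2 fold change was 0.32 (SE 0.18, 95% interval -0.13 to 0.76, unadjusted p = 0.127). *Psmd11*, another structural subunit, was at the other end of the lid, with 36.5 and 38.2 CPM in WT and 32.3 and 31.0 CPM in *Sirt6* cKO (log2 fold change -0.24, SE 0.24). The deubiquitinase *Psmd14* was at -0.14. No subunit of the base or lid passed the unadjusted threshold in edgeR or DESeq2.

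No assembly factor was called in the edgeR or the DESeq2 fit. *Psmd10*, known as gankyrin, a chaperone of the base, had 111 and 97.1 CPM in WT and 77.2 and 89.1 CPM in *Sirt6* cKO, without overlap (log2 fold change -0.32, SE 0.20, unadjusted p = 0.171). *Psmd5* was at -0.28 and *Psmd9* at -0.01, with 70.6 and 63.5 CPM for *Psmd9* in WT and 70.9 and 62.2 CPM in *Sirt6* cKO. The chaperones of the 20S core were less precise, and for 3 of the 4 the interval reached beyond 2-fold (log2 -2.56 to 1.87 for *Psmg2* and -1.13 to 1.52 for *Psmg3*). *Psmg2* had 1.07 and 3.27 CPM in WT and 1.46 and 1.95 CPM in *Sirt6* cKO, and *Psmg3* had 9.79 and 4.46 CPM in WT and 9.94 and 6.36 CPM in *Sirt6* cKO. In both genes the 2 WT libraries lay farther apart than the group means, by 3.06-fold for *Psmg2* and 2.19-fold for *Psmg3*. *Pomp*, the maturation factor of the core, which the rule does not include, had 78.0 and 75.4 CPM in WT and 59.3 and 63.0 CPM in *Sirt6* cKO. It was lower in both libraries labelled *Sirt6* cKO without passing the threshold (log2 fold change -0.33, SE 0.20, unadjusted p = 0.161).

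**Figure D4:**
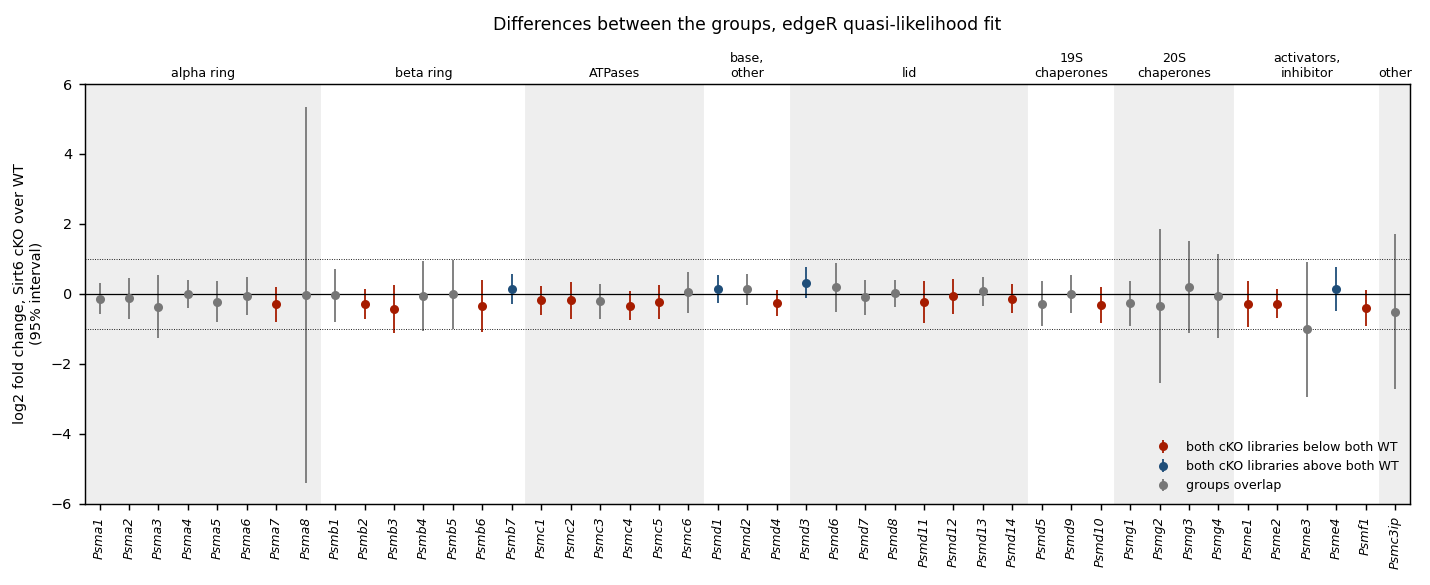
Log2 fold change of *Sirt6* cKO over WT for each gene with its 95% interval from the edgeR fit, grouped by role and coloured by whether the 2 groups overlap, with dotted lines at 2-fold. Every interval includes 0, 35 of the 45 lie between the dotted lines, and that of *Psma8* is the widest.

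Among the regulators that cap the core, the interferon-inducible pair *Psme1* and *Psme2*, which together form the PA28 activator, had estimates close to each other. *Psme1* had 27.4 and 31.2 CPM in WT and 25.8 and 22.2 CPM in *Sirt6* cKO (log2 fold change -0.29, SE 0.27). *Psme2* had 189 and 191 CPM in WT and 158 and 155 CPM in *Sirt6* cKO (log2 fold change -0.28, SE 0.16, unadjusted p = 0.144). Neither gene overlapped between the groups, though *Psme2* shares 59.3% of its words with *Psme2b*. The inhibitor *Psmf1* had 73.5 and 77.9 CPM in WT and 54.0 and 60.5 CPM in *Sirt6* cKO, again without overlap (log2 fold change -0.40, SE 0.21, unadjusted p = 0.107). *Psme4*, which encodes the large nuclear activator, had 27.2 and 26.8 CPM in WT and 29.9 and 29.6 CPM in *Sirt6* cKO. Its replicates nearly coincided and both libraries labelled *Sirt6* cKO were higher, at a log2 fold change of 0.14 (SE 0.25).

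*Psme3* encodes a nuclear activator with which the core degrades some proteins without ubiquitin. After *Psma8*, it was the gene of the set whose replicates differed most. It had 145 and 40.4 CPM in the WT pair and 22.1 and 69.5 CPM in the *Sirt6* cKO pair. The replicates were 3.58-fold apart in WT and 3.14-fold apart in *Sirt6* cKO, a wider gap than the 0.495-fold ratio of the groups. The log2 fold change of -1.02 (SE 0.77, 95% interval -2.94 to 0.91) passed no threshold with 4 libraries. Without *Sirt6* cKO replicate 2 it was -2.07 at an unadjusted p of 0.0467 in the edgeR fit, and without WT replicate 1 it was 0.16, on the other side of 0. The meiotic gene *Psmc3ip*, at 2.11 and 1.57 CPM in WT and 1.76 and 0.826 CPM in *Sirt6* cKO, was also unresolved (log2 fold change -0.51, SE 0.88), and leaving it out kept the median of the others at -0.14.

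A list of 37 symbols covered the surrounding pathway, namely inducible subunits, other subunits and assembly factors, associated enzymes, the Nrf1 axis that adjusts proteasome gene transcription, and the supply of ubiquitin. The table listed 32 of these symbols, all tested. Of those not listed, *Sem1*, *Ufd1*, *Ecpas* and *Ecm29* are other symbols for *Shfm1*, *Ufd1l* and *AI314180*, which were listed. *Paaf1* was not listed under that symbol. At an unadjusted p of 0.05 in the edgeR fit, 2 of the 32 (6.25%) were higher and 0 lower, where 8.58% of all genes were called in either direction, and 0 passed the adjusted p. DESeq2 called 2 higher and 0 lower at the unadjusted p and 0 at the adjusted p. The list's median log2 fold change was 0.03, with 17 estimates above and 15 below 0.

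The 2 were *Nfe2l1*, which encodes Nrf1, a transcription factor known to raise proteasome subunit genes when proteasome activity falls short, and *Ubqln4*, which encodes a shuttle for ubiquitinated proteins. *Nfe2l1* had 37.8 and 85.1 CPM in WT and 160 and 109 CPM in *Sirt6* cKO. Both libraries labelled *Sirt6* cKO were higher, at a log2 fold change of 1.13 (SE 0.44, unadjusted p = 0.0447, adjusted p = 0.567 in the edgeR fit), but the WT replicates were 2.25-fold apart. Without WT replicate 1 the fold change of *Nfe2l1* was 0.64 (unadjusted p = 0.116), and without *Sirt6* cKO replicate 1 it was 0.84 (unadjusted p = 0.171), neither past the threshold. *Ubqln4* had 12.8 and 12.5 CPM in WT and 29.0 and 18.1 CPM in *Sirt6* cKO (log2 fold change 0.89, SE 0.35, unadjusted p = 0.0461, adjusted p = 0.573). *Ubqln4* lost its call without WT replicate 1 (0.88, unadjusted p = 0.115), without WT replicate 2 (0.88, unadjusted p = 0.119) and without *Sirt6* cKO replicate 1 (0.52, unadjusted p = 0.268). With all 4 libraries both calls also ended under upper quartile scaling (unadjusted p = 0.0536 for *Nfe2l1* and 0.0581 for *Ubqln4*) and with library size alone (0.0609 and 0.0633). That of *Ubqln4* ended as well when log2 TPM values were fitted with limma, at log2 fold changes of 0.78 with a pseudocount of 1 (unadjusted p = 0.0803) and 0.84 with a pseudocount of 0.1 (unadjusted p = 0.0693). *Nfe2l1* kept its call in both limma fits (unadjusted p = 0.0366 and 0.0314). Both genes kept it with DESeq2 (unadjusted p = 0.00897 for *Nfe2l1* and 0.0307 for *Ubqln4*). In edgeR both also kept it with no filter on low counts (0.0367 and 0.0445) and with TPM above 0.1 in all libraries (0.0299 and 0.0491). The fold change of *Nfe2l1* was 1.84 without WT replicate 2 and 1.36 without *Sirt6* cKO replicate 2.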

How the data were processed

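RNA-seq of sorted mTECs was analysed in 4 libraries, 2 of each group. Reads had been trimmed with Trim Galore, aligned to mm10 with HISAT2 2.1.0 and quantified with StringTie 1.3.3, per the labels and the study's methods. The authors deposited raw counts per gene, without normalization, and TPM values. Gene annotation and strand setting are not given in the sources used here. Where a gene had over 500 counts in each library, counts over TPM were the same in all libraries within 1% for 88.5% of 9651 genes, so TPM here rests on 1 fixed length per gene and differs between libraries as counts do.

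Counts were fitted with edgeR 4.0.16 in R 4.3.3 (TMM, filterByExpr with minimum count 10 and minimum total 15, glmQLFit, glmQLFTest, two-sided) over all genes, with Benjamini-Hochberg adjustment. DESeq2 1.42.0, other scalings and filters, limma 3.58.1 on log2(TPM + 1) and log2(TPM + 0.1), a replicate block and each library left out in turn were alternatives. The scripts were tested on simulated data with known fold changes, which varied less between libraries than the genes here as a whole. The condition for passing covered the fold changes returned, and not the calls or intervals. Genes named with values in each library are the catalytic subunits, the highest and lowest fold change of each role, the activators, the inhibitor, *Psma8* and *Psmc3ip*, and outside the set *Sirt6*, *Nfe2l1*, *Pomp*, *Psmb8* to *Psmb11* and pathway genes past the unadjusted threshold. The members and lists were chosen with earlier results of these data known. The lists of markers of cortical epithelium, B cells and stroma summed to 628 to 927, 110 to 180 and 616 to 700 CPM. Positions and shared words came from GENCODE M21 (GRCm38), promoters from RefSeq.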

Additional observations from a re-analysis of the deposited data

How the results depend on the processing

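No proteasome gene passed an adjusted p of 0.05 under any of the 12 alternatives. Leaving out 1 library gave 0 to 1 genes higher and 0 to 1 lower at the unadjusted p: *Psma8* was higher without WT replicate 1 and *Psme3* lower without *Sirt6* cKO replicate 2. The lone library of a group is then assumed to vary like the other group. For *Psma8* without WT replicate 1, that lone library was WT 2, which gave 0 counts. The median of the 45 genes was -0.22 under upper quartile scaling and -0.23 without TMM factors, where the median of all genes moved to -0.086 and -0.093, and -0.21 to -0.10 with a library left out.

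Of 371 values for the 31 named genes, 325 kept direction and side of the unadjusted threshold, 13 lost a call, 2 gained one in the same direction (*Psme3*, and *Psmb11* without *Sirt6* cKO replicate 1 at an unadjusted p of 0.0319) and 31 changed sign, among them the *Psma8* value that was called. *Psmc6* was -0.044 with upper quartile scaling and -0.046 with library size alone. *Psma8* was 0.26 on log2(TPM + 1) and 1.40 on log2(TPM + 0.1), against -0.039 in the edgeR fit. *Psmb10* was -0.012 with DESeq2, -0.084 with upper quartile scaling, -0.088 with library size alone, -0.0021 with TPM above 0.1 in all libraries and -0.023 and -0.024 on the TPM scales. With a library left out, log2 fold changes ranged from -0.37 to 0.26 for *Psmb5*, -0.060 to 0.029 for *Psma4*, -0.14 to 0.20 for *Psmc6*, -0.058 to 0.29 for *Psmd2*, -0.10 to 0.065 for *Psmd9*, -0.26 to 0.84 for *Psmg3*, -0.96 to 0.67 for *Psmg2*, -2.07 to 0.16 for *Psme3*, -1.04 to 8.94 for *Psma8*, -0.10 to 0.066 for *Psmb8*, -0.23 to 0.19 for *Psmb10* and -1.26 to 0.32 for *Psmb11*. These groups hold fewer libraries, and for *Psma8* without WT replicate 1 the WT group is the 0 of WT 2 alone. On the TPM scales the pseudocount is added to that 0. Otherwise the cause was not tested.

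Deviations of same-numbered libraries correlated at -0.05 across genes, which are not independent. With 2 libraries per group this value cannot show whether the shared replicate numbers paired the libraries. With the replicate number as a block the median of the 45 genes was -0.14, 0 genes were called, *Psma8* was at 2.58 and *Psmb10* at -0.015, and *Nfe2l1* and *Ubqln4* were at an unadjusted p of 0.0638 and 0.0687, with log2 fold changes of 1.22 and 0.85 against 1.13 and 0.89 without the block. The median SE of the 45 genes was 0.21 log2 units, against 0.41 over all genes, which include many genes of low count. The SE sets the size of difference that 2 libraries per group can resolve.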
